A study of Homo sapiens with 6 samples.

Results

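The genes described here are 8 genes of sterol and fatty acid synthesis and their control: SREBF1, SREBF2, INSIG1, INSIG2, HMGCS1, FASN, ACACA and SCD. They were chosen by name, and for each the called peaks that overlapped the hg38 GENCODE gene body plus 20 kb on each side were taken, so that all 8 entered out of 19111 autosomal protein-coding gene models. These windows held 70 of 98910 peaks in wild-type cells (WT), 64 of 89416 in cells with PIK3CA E545K and 75 of 106747 in cells with PIK3CA H1047R. The assay was ATAC-seq, which maps accessible DNA by where the Tn5 transposase inserts, and the cells were MCF-10A, an immortalised but non-tumorigenic line of human mammary epithelium. The parental line has wild-type PIK3CA, and the other lines are knock-ins that carry a mutation in the helical domain (E545K) or the kinase domain (H1047R) of the catalytic PI3K subunit. Parental cells were kept with EGF at 20 ng/ml, the knock-ins without it, and all in 5% horse serum with insulin, hydrocortisone and cholera toxin. All groups then shared 24 h in medium with 1% stripped FBS, 0.2 ng/ml EGF, insulin, hydrocortisone and cholera toxin. Genotype and maintenance medium cannot be told apart. The labels do not say how many clones stand behind a genotype.

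Each genotype had 2 samples, 6 in all, and 1 pooled peak list. There are therefore no replicate values, no test was possible, sequencing depth is unknown, and every difference below is between 3 lists without a replicate check. Promoters of 4 of 4 epithelial markers (CDH1, EPCAM, KRT8, KRT18), 7 of 8 basal markers (all but TP63) and 3 of 4 luminal markers (all but PGR) had a peak in each list. No adipocyte, hepatocyte, immune or endothelial marker, of 4 in each group, had a promoter peak in all lists. In some lists 1 adipocyte marker (H1047R), 1 hepatocyte marker (E545K and H1047R) and 1 endothelial marker (WT) had one, and the other 13 had none. For the markers only the canonical start was looked at, so a peak at another start, of TP63 or any other, was not counted.

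Cells make cholesterol and fatty acids under the control of the sterol regulatory element binding proteins (SREBPs), membrane-bound transcription factors encoded by SREBF1 and SREBF2. When sterols are plentiful, the INSIG proteins hold the SREBPs with their escort SCAP in the endoplasmic reticulum, and when sterols are short the factors are cut free and enter the nucleus. Insulin and PI3K signalling through AKT and mTORC1 are known to raise SREBP activity, chiefly towards fatty acid synthesis. SREBPs bind sterol regulatory elements, usually beside sites for NF-Y and SP1.

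The sequence just before the start is shown for SREBF2, whose promoter holds a sterol regulatory element, and for INSIG1 and HMGCS1, which are textbook SREBP targets. Each is hg38 sequence, 5′ to 3′ on the strand of the gene, from 250 bases before the canonical start onward and free of annotated exons. SREBF2 is chr22:41832855-41833104 on the plus strand, INSIG1 chr7:155297628-155297775 on the plus strand and HMGCS1 chr5:43313513-43313662 on the minus strand. Capitals mark the sterol regulatory element TCACNCCAC, the NF-Y box CCAAT and the SP1 box GGGCGG, each on either strand, where neighbouring SP1 boxes may overlap.
SREBF2: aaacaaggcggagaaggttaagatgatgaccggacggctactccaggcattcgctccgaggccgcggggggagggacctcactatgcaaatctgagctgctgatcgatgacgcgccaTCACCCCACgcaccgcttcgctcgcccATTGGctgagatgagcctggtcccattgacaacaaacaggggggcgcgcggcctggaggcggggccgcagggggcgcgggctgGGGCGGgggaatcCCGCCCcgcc
INSIG1: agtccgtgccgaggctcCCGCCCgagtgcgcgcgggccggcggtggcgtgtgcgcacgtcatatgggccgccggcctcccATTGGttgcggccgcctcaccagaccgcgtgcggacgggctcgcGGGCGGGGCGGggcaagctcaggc
HMGCS1: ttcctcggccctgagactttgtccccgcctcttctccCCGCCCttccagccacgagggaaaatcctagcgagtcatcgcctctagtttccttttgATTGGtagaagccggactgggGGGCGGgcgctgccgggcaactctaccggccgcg

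In the window from 250 bases before to 50 bases after the start, the sterol regulatory element was found in 2 of the 8 promoters, in SREBF2 at bases -133 to -125. The same letters occurred in 1.18% of all 19111 promoters. The SREBF2 match read TCACCCCAC, and an NF-Y box lay further towards the start, at -106 to -102. The NF-Y box was present in 5 of the 8 promoters against 35.7% of all, and the SP1 box in 8 of 8 against 61.7%. INSIG1 alone of the 8 held an E-box, CACGTG, at -55 to -50 and so past the stretch printed, a motif found in 8.69% of all promoters. GC content of the 8 windows ran from 65.7% to 82.3%, and its part in the SP1 counts was not tested.

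All 8 genes had a promoter peak, within 1 kb of the canonical start, in each list, where 65.5% of all coding genes had one in all 3 lists and 30% had one in none. Peak size is given as the authors' own area value, the sum under the caller's curve across the peak, which grows with width as well as height. Percentile ranks were compared over the 69662 regions that held exactly 1 peak of each list, so that the same regions were ranked 3 times. On that scale the promoter regions of SREBF1, SREBF2, INSIG1, HMGCS1, ACACA and SCD lay between percentile 88.1 (SCD) and 99.8 (INSIG1) in WT. Shifts against WT were between -2.03 and 2.04 points in E545K and between -1.05 and 2.60 in H1047R, but so near the top of the scale a rank has little room to move, and these small shifts do not show that the areas were alike. The E545K area was 5829 against 7831 in WT at HMGCS1 and 4821 against 6128 at SREBF2. Over all such regions the central 90% of shifts ran from -22.7 to 24.6 points in E545K and from -22.8 to 24.9 in H1047R. The FASN and INSIG2 promoter regions held more than 1 peak of a list and were not ranked.

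**Figure D1:**
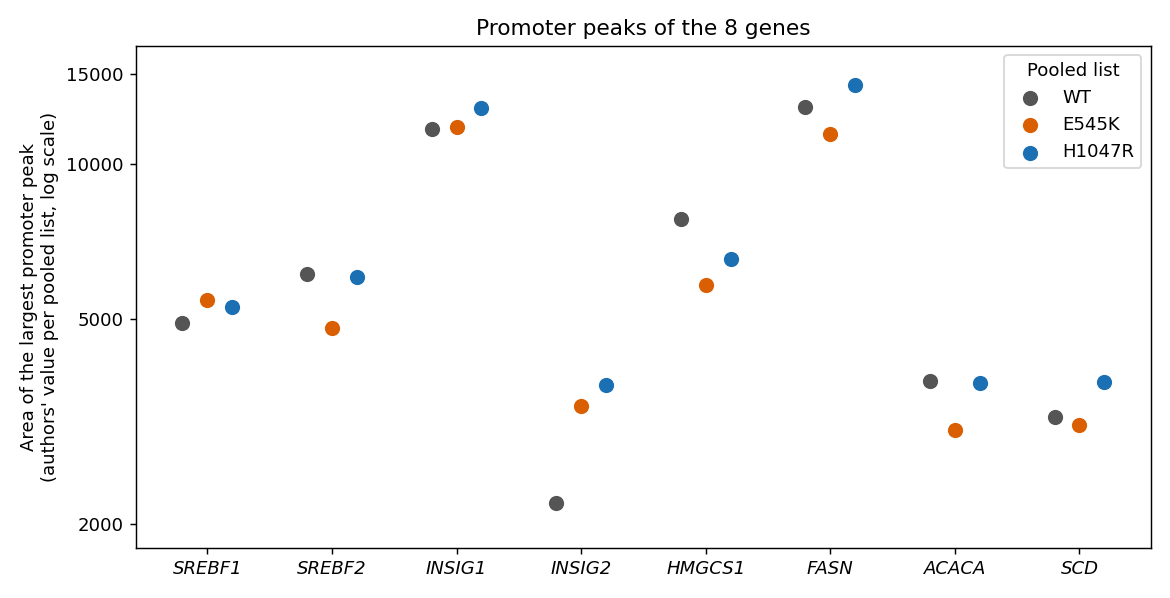
Area of the largest promoter peak (log scale) for each gene in the 3 pooled lists, 1 point per list. INSIG1 and FASN have the highest points in each list and INSIG2 the widest gap, from 2199 in WT to 3725 in H1047R.

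SREBF1 encodes SREBP-1, whose 1c form drives fatty acid synthesis genes and whose 1a form acts on both branches (ENSG00000072310.18, chr17:17810399-17837002, minus strand). Its promoter peak measured 4929 in WT, 5465 in E545K and 5284 in H1047R. A larger peak lay upstream, 2.29 to 5.61 kb before the start and outside any coding gene, with 7740 in WT, 7754 in E545K and 8661 in H1047R. The summit of the upstream peak had a sterol regulatory element within 100 bases in each list, as the 201 bases around the WT summit show (chr17:17840174-17840374, minus strand, the element in capitals).
SREBF1 upstream: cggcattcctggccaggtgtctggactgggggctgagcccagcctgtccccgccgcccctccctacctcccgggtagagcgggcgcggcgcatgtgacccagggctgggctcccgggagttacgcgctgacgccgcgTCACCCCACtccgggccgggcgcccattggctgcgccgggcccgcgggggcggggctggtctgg

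A second annotated start of SREBF1, 13.4 kb inside the gene, also lay in a peak, with 3640 in WT, 3176 in E545K and 3095 in H1047R. The E545K list had 4 weak peaks, 3 inside SREBF1 and 1 in the neighbouring RAI1, that had no partner in either other list, a partner being a peak that overlaps by at least 1 bp. Their areas ran from 267 to 343, and none was strong, meaning in the upper 50% of its list by area. Peaks covered 52.7% of the SREBF1 body in E545K, 36.9% in WT and 33.9% in H1047R. Over the window with its flanks the shares were 35.2%, 27.6% and 24.5%, and the E545K excess over WT, 7.56 points, lay at percentile 96.6 of all coding genes. Of 12 shared regions, 9 ranked higher in E545K than WT and 8 higher in H1047R than WT, against 47.7% and 48.0% of all shared regions. By over 10 points, 5 ranked higher and 1 lower in E545K (17.1% and 17.7% of all shared regions), and 4 higher and 1 lower in H1047R (17.6% and 18.3%). The region 28.7 to 29.8 kb from the start, in RAI1, shifted by 35.7 points in E545K by area but by 4.14 when ranked by the summit value. A region 12.1 to 12.7 kb upstream, in TOM1L2, had 392 in WT, 239 in E545K and 721 in H1047R, a shift of -10.6 points in E545K and 23.1 in H1047R.

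SREBF2 encodes SREBP-2, the main activator of cholesterol synthesis genes (ENSG00000198911.13, chr22:41833105-41907306, plus strand). Its promoter peak measured 6128 in WT, 4821 in E545K and 6048 in H1047R. The 4 intronic peaks shared by all lists were likewise lowest in E545K, in areas not scaled for the lower areas of that list as a whole. The peak 6 kb into the gene had 1003 in WT, 429 in E545K and 1154 in H1047R, a rank shift of -27.4 points in E545K and 3.10 in H1047R. All 5 shared regions of SREBF2 ranked lower in E545K than WT, 2 of them by over 10 points, where 17.7% of all shared regions did so. In H1047R 3 ranked lower and 2 higher, with no shift over 10 points. A strong intronic peak 24.2 to 24.8 kb from the start, 785 in WT and 689 in H1047R, had no E545K partner. Past the gene end, a region in SHISA8 had 417 in E545K and 367 in H1047R but no WT peak. Another there had 590 in WT and 210 in E545K but no H1047R peak. Regions not shared by all lists were not ranked. In E545K, then, most shared SREBF1 regions ranked higher than in WT and all 5 shared SREBF2 regions lower.

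Each SREBP gene hosts a copy of miR-33 in an intron, a microRNA known to limit cholesterol export. The mature sequences from RefSeq (GRCh38.p14) are shown because both copies share a seed, bases 2 to 8, in capitals.
miR-33a-5p: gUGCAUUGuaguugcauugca
miR-33b-5p: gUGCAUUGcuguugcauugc
MIR33B, in SREBF1, lay inside a peak of each list, 1935 in WT, 2686 in E545K and 2207 in H1047R, which also holds an annotated start of SREBF1 22.6 kb into the gene. MIR33A, in SREBF2, lay in no peak, and the nearest was 6.84 kb away in WT, 6.73 kb in E545K and 14.0 kb in H1047R. The 2 copies thus differed in all 3 lists in whether a called peak covered them. The peak over MIR33B was wide, 4013 bp in WT, 4022 bp in E545K and 3555 bp in H1047R. Its area per bp was 0.482, 0.668 and 0.621 in that order, against 2.29, 2.49 and 2.41 in the SREBF1 promoter peak. Its summit lay 24.6, 24.6 and 24.1 kb from the canonical start of SREBF1, and MIR33B 23.1 kb from it. Openness at MIR33B itself was not tested.

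INSIG1, itself a target of the SREBPs, encodes the retention protein of the endoplasmic reticulum whose level follows SREBP activity (ENSG00000186480.13, chr7:155297776-155310235, plus strand). Its promoter peak was among the largest of the 8 genes, 11726 in WT, 11842 in E545K and 12889 in H1047R. The peak 6.5 kb upstream of INSIG1 differed most, with 539 in WT, 908 in E545K and 1556 in H1047R. Its rank shifted by 28.7 points in E545K and 40.2 in H1047R, and by 28.4 and 45.6 when the summit value was used. It lies outside annotated coding genes, and the 201 bases around its H1047R summit (chr7:155291145-155291345, plus strand) hold a sterol regulatory element that overlaps an AP-1 site, TGANTCA, with a further AP-1 site before it, all in capitals.
INSIG1 upstream: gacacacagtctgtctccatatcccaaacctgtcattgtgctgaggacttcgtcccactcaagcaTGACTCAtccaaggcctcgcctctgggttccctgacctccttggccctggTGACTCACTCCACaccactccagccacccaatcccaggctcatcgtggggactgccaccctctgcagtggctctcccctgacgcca

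Inside INSIG1 an intronic peak 7.7 kb from the start went the other way, with 702 in WT, 357 in E545K and 347 in H1047R, a shift of -20.2 and -31.65 points. A peak 10.6 kb from the start had 344 in WT, 405 in E545K and 741 in H1047R, a shift of 14.9 and 29.0 points. Past the gene end, 14.7 to 16.0 kb from the start, H1047R had a strong peak of area 695 with no partner in either other list, which no longer counted as strong when lists were reduced to equal length or strength was taken from the summit value. INSIG1 thus had a large promoter peak in each list, beside weaker peaks whose ranks differed from WT in both knock-ins.

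INSIG2 encodes the second retention protein, which is not known as an SREBP target in the way INSIG1 is (ENSG00000125629.16, chr2:118088452-118110997, plus strand). Its promoter peak was the smallest of the 8 in WT, 2199 over 933 bp with a separate peak of 485 beside it, against 3389 over 1758 bp in E545K and 3725 over 1981 bp in H1047R. The WT list so held 2 peaks where the knock-in lists held 1 wide one, and the sum in WT was also below both. A pair of weak intronic peaks, 301 and 210, was called in H1047R only. The remaining peaks, past the gene end, were shared and shifted by at most 8.57 points.

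HMGCS1 encodes the cytosolic HMG-CoA synthase of the mevalonate pathway, which feeds sterol synthesis (ENSG00000112972.15, chr5:43287470-43313512, minus strand). Its promoter peak had 7831 in WT, 5829 in E545K and 6554 in H1047R. The WT summit lay at base -252, beside the letters TCACACCAC, while the summits in E545K and H1047R lay at -98 and -99. Downstream of HMGCS1, 28.3 to 32.1 kb from the start, H1047R had 1 peak of 4466, WT had 1390 and 754, and E545K 349. Elsewhere in the window 2 weak peaks were called in WT only, with 207 and 212, and 1 in E545K only, with 288. The WT peak of 754 was strong and had no E545K partner, and the window was covered 11.99% in WT, 5.53% in E545K and 11.3% in H1047R. HMGCS1 lies on the short arm of chromosome 5, where the 145 shared regions within 5 Mb outside the window had a median shift of -8.84 points in E545K and -7.55 in H1047R, against -2.28 to 0.99 around the other 7 genes. Their part in the HMGCS1 values was not tested.

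FASN encodes fatty acid synthase, the multi-domain enzyme that makes palmitate (ENSG00000169710.9, chr17:82078338-82098294, minus strand). Peaks covered 84.9% of its gene body in WT and 98.3% in E545K but 14.8% in H1047R. The difference of 70.2 points between WT and H1047R was reached by 3 of 19111 gene bodies, 0.0157%, FASN among them, and the E545K to H1047R difference of 83.5 points by 13, or 0.068%. E545K exceeded WT by 13.3 points, which 590 bodies, 3.09%, reached. The promoter peak was present in all lists, with 12916 in WT, 11439 in E545K and 14291 in H1047R. It reaches into the gene body and counts in these shares, and in H1047R it was the only peak there.

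**Figure D2:**
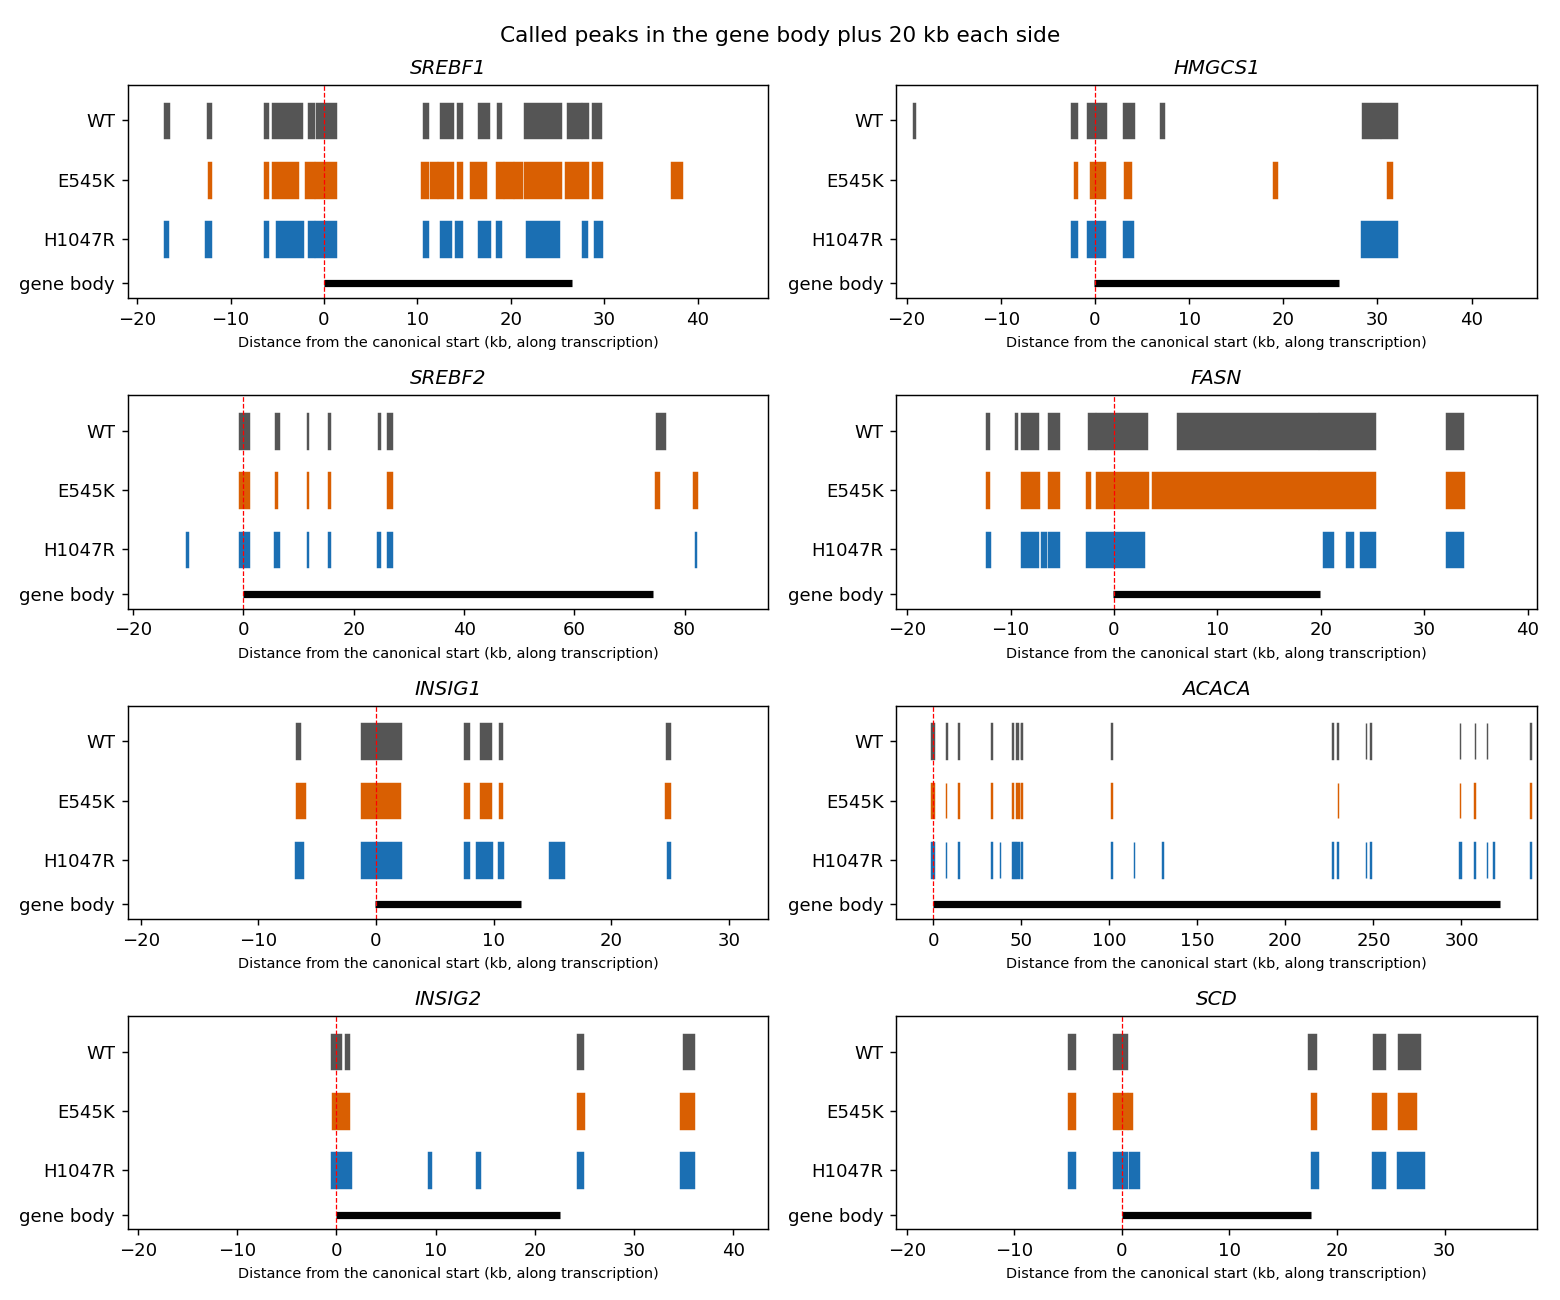
Called peaks of the 3 pooled lists (coloured bars) by distance in kb from the canonical start of each gene, along transcription, with the gene body as a black bar and the start as a dashed line. Over FASN the WT and E545K bars run across most of the body while H1047R has bars at the promoter and past the gene end.

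Most of the FASN body lay in 1 domain in WT, chr17:82078513-82092154, 13642 bp wide, with area 8668 and no H1047R partner. It was strong by area though not by summit value. In E545K the domain was chr17:82073004-82094562, 21559 bp wide with area 16310. Beyond the gene end H1047R had 3 pieces of 877, 205 and 555, where WT had a peak of 5961. These were wide and low peaks: the WT domain had a summit -log10 p of 2.89, at percentile 10.3 of its list, and 0.635 of area per bp against 2.62 in the FASN promoter peak. In E545K its summit -log10 p was 3.45, and only 7 peaks of that list were wider. Peaks of the E545K list were wider as a whole, the median width being 539 bp there and 466 bp in WT and H1047R, and the part of this in the FASN values was not tested. The window also holds DUS1L and CCDC57, whose 4 shared regions shifted by -1.46 to 17.2 points in E545K and by -0.97 to 9.23 in H1047R. In CCDC57 a weak peak was called in H1047R only, with 357, and 1 in WT only, with 222.

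**Figure D3:**
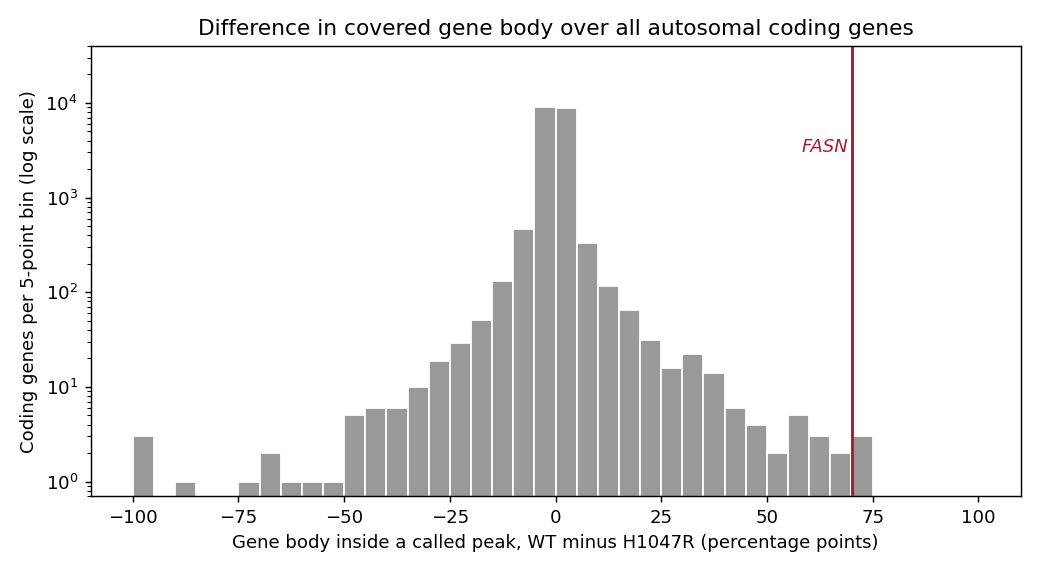
Number of autosomal coding genes (log scale) by the difference in covered gene body, WT minus H1047R in percentage points, in bins of 5 points. The line marks FASN at 70.2 points, near the right end of the distribution.

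ACACA encodes acetyl-CoA carboxylase 1, which makes the malonyl-CoA that FASN consumes (ENSG00000278540.5, chr17:37084992-37406836, minus strand). Its promoter peak, shared with the divergent gene TADA2A, had 3798 in WT, 3041 in E545K and 3759 in H1047R. A larger peak stood at an alternative start 47.7 kb into the gene, with 5344 in WT, 3914 in E545K and 5684 in H1047R. The other 4 annotated starts had no peak in WT or E545K. Among 13 shared regions of ACACA, 11 ranked lower in E545K than WT, where 47.7% of all shared regions ranked higher. By over 10 points 7 ranked lower, against 17.7% of all shared regions. The median shift was -12.6 in E545K, against -0.512 in H1047R. The lowest was an intronic region 229.7 kb from the start, 694 in WT, 217 in E545K and 806 in H1047R, a shift of -38.1 and 3.56 points. Of all 22 ACACA regions, 4 had a peak in WT and H1047R but none in E545K, a pattern of 9.59% of regions in all gene windows. In H1047R only, 5 had one, with areas of 227 to 408 and none strong, against 10.5% of regions in all gene windows. At 299 kb a region had 440 in WT, 527 in E545K and 1529 in H1047R, a shift of 48.3 points in H1047R.

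SCD encodes stearoyl-CoA desaturase, which makes monounsaturated fatty acids (ENSG00000099194.6, chr10:100347233-100364826, plus strand). Its promoter peak measured 3233 in WT, 3110 in E545K and 3785 in H1047R. By rank it differed little among the lists, with all 5 shared regions within 5.98 points of WT. The window was covered 10.3% in WT, 9.76% in E545K and 12.4% in H1047R. The H1047R excess over WT, 2.15 points, lay at percentile 94.0 of all coding genes. A weak peak 0.57 to 1.57 kb past the start was called in E545K, with area 272, and in H1047R, with 587, but not in WT.

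**Figure D4:**
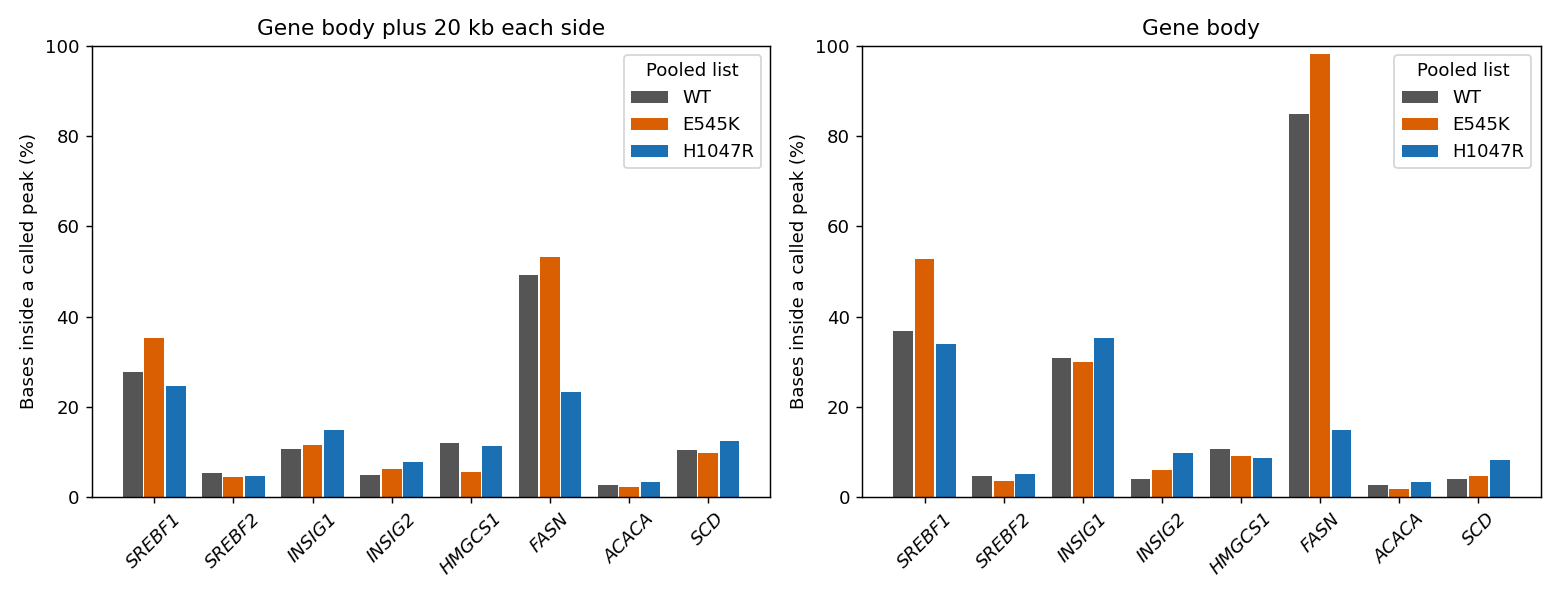
Share of bases inside a called peak (percent) for the gene body plus 20 kb each side (left) and the gene body alone (right), 1 bar per pooled list. FASN stands out with 84.9% and 98.3% of the body in WT and E545K against 14.8% in H1047R, and SREBF1 with 52.7% in E545K.

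**Figure D5:**
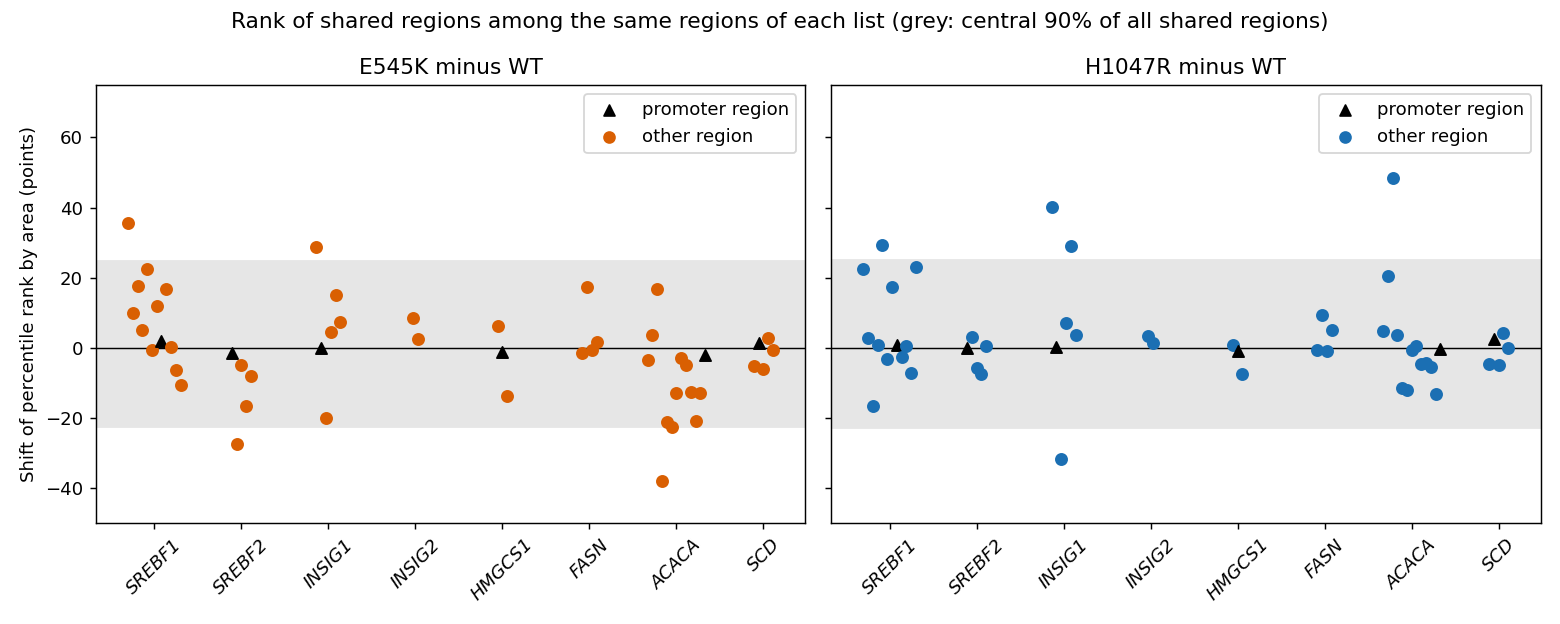
Shift of percentile rank by area against WT for each shared region, with promoter regions as black triangles and a grey band for the central 90% of all shared regions. Promoter triangles, whose ranks are near the top of the scale in each list, lie near 0, SREBF2 and most ACACA points lie below 0 in E545K, and 1 ACACA point reaches 48.3 in H1047R.

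Across all 8 genes the peaks lay in 82 merged regions, of which 55, or 67.1%, were called in all 3 lists (95% Wilson interval, for counting error only, 56.3 to 76.3), against 62.8% of regions in all gene windows. Of the other regions 10 were called in H1047R only, 12.2% of the 82 against 10.5% in all gene windows. In E545K only 5 were called, 6.10% against 4.56%, and in WT only 3, 3.66% against 6.19%. WT peaks without an E545K partner were 10 of 70, 14.3% against 19.2% over all gene windows, and those without an H1047R partner 6 of 70, 8.57% against 10.2%. E545K peaks without a WT partner were 7 of 64, 10.9% against 12%, and those without an H1047R partner 6 of 64, 9.38% against 8.91%. H1047R peaks without a WT partner were 12 of 75, 16% against 16.9%, and those without an E545K partner 16 of 75, 21.3% against 22.6%. These shares lay near or below those of all gene windows and say nothing particular of the 8 genes. Strong peaks without a partner were few: 2 of 45 WT peaks against E545K (1.82% over all windows), 1 of 45 against H1047R (1.17%), 1 of 46 H1047R peaks against WT and 2 of 46 against E545K (2.77% in each case), and no E545K peak of 33 against either list (2.44% and 1.7%). These counts rest on the overlap rule: where a partner had to cover 50% of the peak's width, E545K had 2 of 33 without a WT partner and 3 without an H1047R partner, and 5 of 45 WT peaks and 6 of 46 H1047R peaks had no E545K partner. Window coverage was higher in E545K than WT for 4 of 8 genes (43.1% of all), in H1047R than WT for 4 of 8 (62%) and in E545K than H1047R for 2 of 8 (32.6%). Of the 50 shared regions, 17, or 34%, ranked higher in E545K than H1047R (22.4 to 47.8), against 49.7% of all shared regions. Without the ACACA window, an alternative added after seeing the data, it was 16 of 37, or 43.2%.

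Summits of the peaks away from coding promoters held AP-1 sites within 100 bases in 19 of 60 WT peaks, 17 of 53 E545K peaks and 24 of 64 H1047R peaks, against 38.5%, 36.8% and 40.9% over each list. The sterol regulatory element was found at 4 of 60, 3 of 53 and 3 of 64 such summits, against 1.29%, 1.38% and 1.36%. The WT matches were the upstream peaks of SREBF1 and INSIG1 and 2 peaks of SREBF2, 1 of them the intronic peak missing from E545K.

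Of 48 other genes of the pathway, 46 had an autosomal model and 40 of these had a promoter peak in all lists. In no list was there one for 5, ABCA1, ACACB, FADS2 and THRSP among them, while MLXIPL, the carbohydrate-responsive factor ChREBP, had one in WT and H1047R. Strong H1047R peaks without a WT partner lay in the windows of 8 of the 46 (7.03% of all genes), with 2 such peaks at SCD5, a second desaturase gene, and those without an E545K partner in 6 (7.69%). The reverse counts were 2 for WT against H1047R (2.74%), 2 for E545K against H1047R (3.87%), 4 for WT against E545K (4.6%) and 4 for E545K against WT (5.73%). SCAP, the SREBP escort gene, had 1 strong WT peak and 1 strong E545K peak without an H1047R partner. Among the 3 of these genes nearest to FASN in covered window were TM7SF2, a sterol reductase gene, and IDI1, which encodes isopentenyl diphosphate isomerase. Their distances were still large, 40.9 and 46.4 points over the 3 shares. In WT, E545K and H1047R the shares were 23.3%, 21.7% and 22.8% at TM7SF2 and 20.2%, 17.6% and 16.9% at IDI1. Those of FASN were 49.3%, 53.2% and 23.2%.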

How the data were processed

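ATAC-seq peak lists of 3 genotypes of MCF-10A cells, 2 samples each, were used, with samples grouped by the genotype in the labels and 1 list for both samples of a genotype. Per the submitters' processing notes, the reads were trimmed with Trim Galore 0.4.0 (cutadapt), checked with FastQC, handled with SAMtools and peaks called with Genrich 0.6.1 on hg38. Which aligner was used is not given in the sources used. The deposited signal value is the peak's area in the caller's curve, at least 200 in each list, and the deposited -log10 p belongs to the summit. Both are the authors' values. Ranks and filters were made within a list, and areas of the 3 lists are printed side by side without scaling for depth. The lists cover 22 autosomes and give no depth or value per sample, so no test was made and intervals cover counting error only.

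The members and lists were chosen with earlier results of these data known. Gene models were GENCODE 44, and canonical starts those of its canonical transcripts. Touching peaks, from whichever list, formed 120615 merged regions. Motifs were sought as exact letters on both strands. Of the 8 genes, 7 matched the RefSeq promoter table, and the sequences shown come from hg38. All 8 genes are named, with pathway genes whose promoter peak was in some lists only, up to 3 per comparison with the most strong unpartnered peaks, and the 3 nearest to FASN in coverage; the pathway genes without a promoter peak were chosen after their values were seen. Some genes that this rule takes, and a promoter sequence, are not reported here. Alternatives were other promoter and flank widths, overlap rules, peak strength, equal-length lists and ranks by summit; leaving out ACACA or HMGCS1 and the motif search at summits were added after seeing the data. Tools were Python 3.11.15 with pandas 2.3.3, numpy 2.4.6, matplotlib 3.10.9 and scipy 1.17.1. The counting was checked against bedtools 2.31.1 and tested on simulated data.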

Additional observations from a re-analysis of the deposited data

How the results depend on the processing

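No paired analysis was possible because each genotype has 1 pooled peak list and no values per sample; for the same reason no replicate could be left out. Of 118 recomputed group values, 112 stayed within the Wilson interval of the reported share or within 1.5 times the reported count, but with so few peaks that interval is wide. Where a partner had to cover 50% of a peak's width, shares without a partner were higher: for strong peaks 11.1% against 4.44% (WT without E545K), 6.06% against 0% (E545K without WT), 9.09% against 0% (E545K without H1047R) and 13.0% against 4.35% (H1047R without E545K), and for all peaks 21.4% against 14.3% (WT without E545K) and 15.6% against 9.38% (E545K without H1047R). With strength by summit value, strong peaks without a partner were 0% for WT without H1047R, where the FASN domain is no longer strong, 0% for H1047R without WT, 2.63% for WT without E545K and 2.27% for H1047R without E545K. With lists of equal length they were 0% for H1047R without either other list, and all WT peaks without H1047R were 4.69%. For gene bodies only they were 0% for H1047R without WT and 3.45% for WT without H1047R. Leaving out 1 gene's window was chosen after seeing the data: without ACACA, 13.2% of H1047R peaks lacked an E545K partner against 21.3%, and without HMGCS1, 1 of 40 strong WT peaks did. Per gene, 72 differences in covered share were recomputed: 40 stayed within 1.5 times the reported difference, 31 moved further and 1, at HMGCS1, reversed. Reversal was counted only for differences of at least 3 points. The SREBF1 difference, H1047R minus WT, went from -3.07 points to -0.583 (upper 50% by area) and -0.225 (lists of equal length). The HMGCS1 difference in covered share, E545K minus H1047R, was 0.564 points over the gene body alone against -5.76 over the window. Unknown depth limits what the absence of a weak peak shows.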
